A study of Mus musculus with 12 samples.

Results

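The 32 genes described here encode lysosomal hydrolases, the activator proteins that present lipids to them, and proteins of the lysosomal membrane. They were taken by symbol from the 16570 genes of the count table. Cathepsins and the subunits of the proton pump that acidifies lysosomes were left out of the list. All 32 were found in the table and all 32 passed the filter on low counts, which kept 12168 genes for testing.

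The libraries came from bone marrow of C57BL/6J mice aged 6 to 8 weeks, whose mononuclear cells were grown into macrophages over 2 days with M-CSF (50 ng/mL), the growth factor that maintains macrophages. There were 4 groups of 3 libraries each. The M-CSF group had this factor alone for 2 days, and the RANKL group had the same M-CSF plus RANKL (100 ng/mL), the cytokine that turns macrophages into osteoclasts. The RANKL+BMS309403 group had both factors plus 1 µM BMS309403, which blocks FABP4, a carrier of fatty acids, and the RANKL+RHC80267 group had both factors plus 1 µM RHC80267, an inhibitor of diacylglycerol lipase. M-CSF was thus present in every group, and both inhibitors were compared with the same 3 RANKL libraries. The treatment labels give 2 days, whereas the growth protocol speaks of 4 days with RANKL. The labels do not say whether the 3 libraries of a group came from separate mice or cultures, so the p-values measure the spread between these libraries, which may be technical.

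Lysosomes are acidic organelles in which hydrolases break down proteins, lipids, glycans and glycogen. Most of the soluble enzymes receive a mannose phosphate tag in the Golgi apparatus and are carried to the lysosome by receptors for that tag, and the membrane is lined by heavily glycosylated proteins such as LAMP1 and LAMP2. Many lysosomal genes carry E-box elements near their start that are bound by the related factors TFEB, TFE3 and MITF. In osteoclasts, lysosome-related vesicles fuse with the membrane that faces bone and release their enzymes there.

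The letters upstream of 4 members are shown because these members differ in E-box content and, as given further on, in response. The search used the 6-letter E-box CACGTG and its 8-letter extension TCACGTGA, which holds the shorter motif within it. Each reads the same on both strands. RefSeq promoter windows (GRCm38.p6) ran from 250 bases before to 50 bases after a listed start. They were matched by gene identifier for 30 members, with 33 windows in all, and not for Asah1 and Galns. Some members, Cd63 and Ids among them, had only a window at a start inside the gene, so their outermost start was not searched. The 250 bases before the start are printed 5′ to 3′ on the gene's strand, with E-boxes in capitals.
Arsb (chr13:93771429-93771678, plus strand): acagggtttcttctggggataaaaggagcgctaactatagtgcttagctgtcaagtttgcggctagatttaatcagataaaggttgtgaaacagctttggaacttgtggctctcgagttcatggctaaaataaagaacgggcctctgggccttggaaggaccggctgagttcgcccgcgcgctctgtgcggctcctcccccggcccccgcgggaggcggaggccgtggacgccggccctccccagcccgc
Lamp1 (chr8:13158911-13159160, plus strand): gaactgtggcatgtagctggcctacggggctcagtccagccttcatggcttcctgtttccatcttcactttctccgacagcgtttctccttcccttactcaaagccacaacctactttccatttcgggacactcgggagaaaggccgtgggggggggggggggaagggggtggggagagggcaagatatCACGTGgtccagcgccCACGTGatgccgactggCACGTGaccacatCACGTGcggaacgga
Mcoln1 (chr8:3500269-3500518, plus strand): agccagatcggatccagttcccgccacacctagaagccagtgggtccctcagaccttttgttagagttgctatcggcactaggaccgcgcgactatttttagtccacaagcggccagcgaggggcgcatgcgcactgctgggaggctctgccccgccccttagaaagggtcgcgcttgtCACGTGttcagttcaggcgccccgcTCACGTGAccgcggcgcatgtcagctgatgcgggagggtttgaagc
Gla (chrX:134601006-134601255, minus strand): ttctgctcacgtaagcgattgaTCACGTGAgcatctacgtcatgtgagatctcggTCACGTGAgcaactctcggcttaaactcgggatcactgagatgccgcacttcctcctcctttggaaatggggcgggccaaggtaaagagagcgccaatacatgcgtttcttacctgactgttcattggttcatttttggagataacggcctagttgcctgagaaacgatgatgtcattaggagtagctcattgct
CACGTG was found in the windows of 9 members, or 27.3% of the member windows, against 9.8% of the windows of the genes tested and 7.15% of all windows in the table. Lamp1 held 4 copies, whose first bases lay at -61, -45, -28 and -15 from the start. Mcoln1 held copies at -71 and -45, and Gla at -227 and -194. Single copies lay at -29 in Sgsh, -73 in Naglu, -48 in Glb1, -16 in Arsa, -140 in Gaa and -49 in Lgmn, each counted from the start that its window belongs to. Lgmn has 2 windows, and its copy lay in the window of a start inside the gene, whereas the window at the outermost start held none. The longer motif was found in Mcoln1 and Gla alone of the members, 6.06% of their windows against 1.83% for tested genes and 0.974% for the table. A match describes the letters only, and no match says only that the motif is not in this window.

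The libraries held between 17760844 and 18344989 estimated counts and every member had at least 749 in each. Member levels varied between replicates by a median of 2.59% to 4.23% (coefficient of variation) in the 4 groups. Summed CPM (read counts scaled to each library's total with TMM factors) of 7 osteoclast markers lay between 48.8 and 68.3 in the M-CSF libraries and 7500 to 9330 with RANKL, against 6080 to 6900 in the BMS309403 group and 14900 to 16900 in the RHC80267 group. The sum of 6 macrophage markers was 8320 to 8690 CPM in M-CSF libraries, 5370 to 5490 CPM in RANKL libraries, and 5530 to 5890 CPM and 4790 to 4880 CPM in those with BMS309403 and RHC80267. The 8 neutrophil markers summed to 1090 to 1580, 1450 to 1660, 1500 to 1610 and 692 to 1030 CPM in the same order. Stromal markers summed to at most 12.1 CPM outside the RHC80267 group, where the range was 12.6 to 59.1. Dendritic cell markers stayed between 13.9 and 25.2 CPM, and T and B cell markers between 1.09 and 6.11 CPM, in all 12 libraries. None of these marker genes was at 0 in every library. The labels call all 12 libraries macrophages by cell type and the 3 RANKL-treated groups osteoclasts by source, and both kinds of marker were present in those groups. In bulk libraries fewer cells of a type and less RNA per cell cannot be told apart, and the part of cell makeup in the members' values was not tested.

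Per unit of transcript length, the 32 genes spanned a wide range. Psap, the precursor of the saposins that hand sphingolipids to their hydrolases, had a mean of 8931 TPM (as deposited, each transcript's share of its library corrected for length) over the 12 libraries, which placed it at rank 6 of all genes and made up 40.9% of the members' summed TPM. Cd68, Cd63, Lamp1, Grn, Lgmn and Hexa followed with means between 1024 and 2022 TPM. Arsa, at 24.8 TPM, and Idua, at 30.3 TPM, were the lowest. Of the 32 members, 18 lay at or above the 90th percentile of all genes by TPM.

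RANKL changed the levels of most members, in both directions, and 27 of 32 stayed under 0.5 on the log2 scale. Arsb, which codes for arylsulfatase B (removes sulfate from dermatan and chondroitin sulfate), went from 48.3 ± 2.22 CPM (SD, n = 3) with M-CSF to 289.7 ± 35.2 CPM with RANKL. Lgmn, the asparagine-specific protease legumain, went from 1800 ± 77.3 to 1071 ± 70.6 CPM. Smpd1, Man2b1 and Ppt1, described further on, also passed 0.5. With edgeR's quasi-likelihood test, 10 of the 32 members rose (adjusted p below 0.05 over all genes tested; 31.4% of the 12168 genes did) and 14 fell (29.8%). All 24 calls held in every alternative processing. Arsb was the 1 member that changed more than 2-fold, and the median log2 fold change was -0.03 over the members and 0.003 over all genes. Among glycosaminoglycan-degrading enzymes 4 of 7 rose and 1 fell. Of the membrane proteins 1 of 7 rose and 4 fell, of the sphingolipid genes 3 of 9 rose and 4 fell, and of the glycoprotein and glycogen enzymes 2 of 5 rose and 2 fell. Of the 4 genes for proteases, thioesterase and progranulin 3 fell and 0 rose (0 also at an unadjusted p below 0.05, with DESeq2 and with limma-voom). The 8 members that did not pass the test, Cd68, Mcoln1, Idua, Galns, Glb1, Gla, Neu1 and Tpp1, had log2 fold changes between -0.11 and 0.11. Beside these changes, 7 of 7 osteoclast markers rose, and 5 of 6 macrophage markers fell and 1 rose. Of the neutrophil markers 6 of 8 rose and 2 fell, and 2 of 4 dendritic cell markers rose. Of the T and B cell markers tested 1 of 3 fell, and of the 4 stromal markers tested 0 were called. A p that misses the threshold does not show that a level was unchanged.

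With BMS309403 on top of RANKL, few members passed the test, most of them higher and all by small amounts. Lgmn went from 1071 ± 70.6 to 1315 ± 33.0 CPM, Lamp1 from 2247 ± 169 to 2612 ± 93.5 CPM and Arsb from 289.7 ± 35.2 down to 224 ± 14.5 CPM. By edgeR 9 members rose (3.49% of all genes did) and 1, Arsb, fell (3.74%). Beside Lgmn and Lamp1, those that rose were Psap, Lamp2, Ppt1, Gla, Hexa, Man2b1 and Grn, by 0.12 (Grn) to 0.20 (Psap) on the log2 scale. Beside these changes 5 of 7 osteoclast markers fell, and 2 of 6 macrophage markers rose and 4 were not called. The median log2 fold change of the macrophage markers was 0.14. By role, 2 of 7 membrane proteins, 3 of 9 sphingolipid genes, 1 of 5 glycoprotein and glycogen enzymes and 3 of 4 genes of the protease group rose. In these 4 roles none fell by edgeR, DESeq2, limma-voom or at an unadjusted p below 0.05. The median log2 fold change was 0.09 over the members and -0.006 over all genes, 28 of 32 members lay above 0, and no member moved by as much as 0.5. The 22 members not called ranged from -0.09 (Arsa) to 0.14 (Scarb2, adjusted p = 0.0572). Of these, Scarb2 was called higher in 4 of the alternatives, DESeq2 among them (adjusted p = 0.0315), and Cd68, Galc and Asah1 in 1 each.

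Of the 10 calls, 3 held with each library left out in turn and 7 did not. Without RANKL replicate 1, edgeR called 2 members higher, Lgmn (log2 fold change 0.25, adjusted p = 0.00267) and Lamp1 (0.16, adjusted p = 0.024), while Arsb fell by 0.27 (adjusted p = 0.00611). Lamp2, Hexa, Gla, Psap, Man2b1, Ppt1 and Grn then had log2 fold changes of 0.09 to 0.15 and adjusted p between 0.0538 and 0.317. Without BMS309403 replicate 2 the same 2 members were called higher and those 7 stood at 0.12 to 0.19, with adjusted p between 0.0521 and 0.128. In that fit Hexa (0.15), Gla (0.17), Man2b1 (0.14) and Grn (0.12) were as high as with all libraries or slightly higher. Lower than with all libraries were Lamp2 (0.135 against 0.163), Ppt1 (0.133 against 0.159) and Psap (0.188 against 0.198). Without RANKL replicate 1 all 7 were lower than with all libraries. Why the calls were lost was not tested. Over all genes, the number called higher went from 425 to 152 without RANKL replicate 1 and to 171 without BMS309403 replicate 2, in fits with 1 library fewer. Without RANKL replicate 1, 28 of 32 members lay above 0. The share of all genes above 0 in that fit was not computed, and all members were read from the same libraries. RANKL replicate 1 was the lowest of its group for 24 of the 32 members, against 34.6% of all tested genes, and had the highest osteoclast marker sum of its group, 9326 CPM against 7849 and 7501. The part of that marker difference in these calls was not tested.

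**Figure D1:**
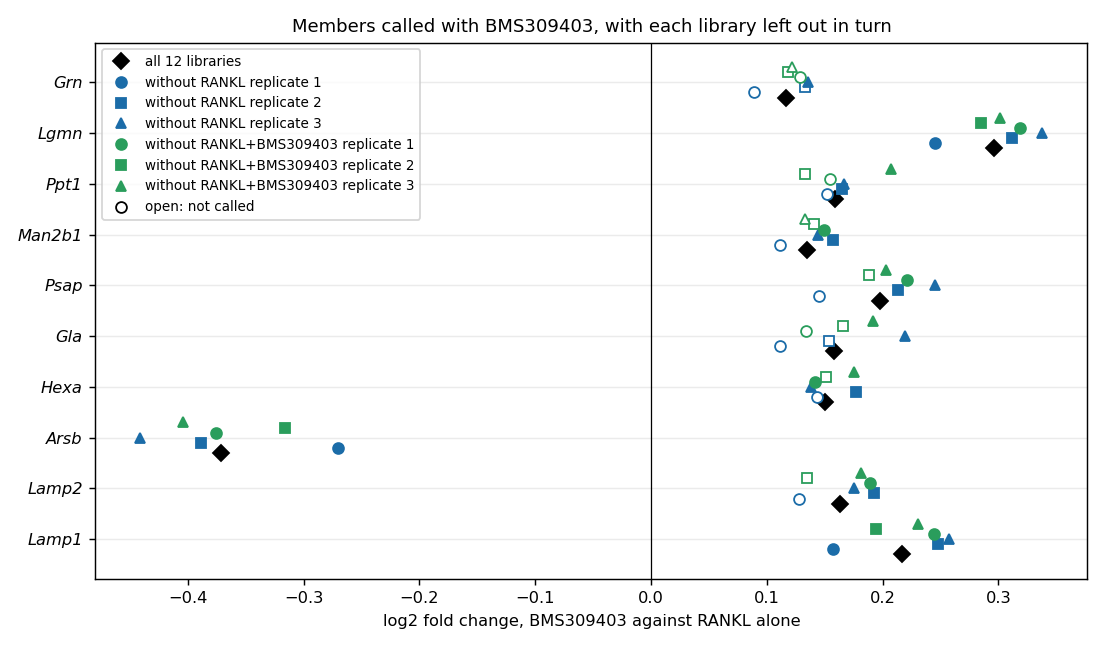
Log2 fold changes (x axis) of the 10 members called with BMS309403 against RANKL alone, 1 gene per line on the y axis, with all 12 libraries (diamonds) and with each library of the 2 groups left out in turn. Filled symbols are called by edgeR at adjusted p below 0.05. Lamp1, Lgmn and Arsb are filled in each of the 7 fits, and the other 7 genes turn open without RANKL replicate 1 and without BMS309403 replicate 2.

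RHC80267 on top of RANKL moved members in both directions in equal number. Arsb went from 289.7 ± 35.2 to 453 ± 18.7 CPM, Smpd1 (acid sphingomyelinase) from 64.6 ± 3.52 to 89.2 ± 1.13 CPM and Glb1 (beta-galactosidase) from 148 ± 2.38 to 195 ± 8.31 CPM. Gla, alpha-galactosidase A, went from 152 ± 11.5 down to 106 ± 1.90 CPM. By edgeR 12 members rose (26.9% of all genes did) and 12 fell (23.0%), with a median log2 fold change of -0.04 over the members and 0.03 over all genes. The 12 that rose were Arsb, Smpd1, Glb1, Gaa, Arsa, Tpp1, Idua, Manba, Ctns, Hexa, Mcoln1 and Naglu. The 12 that fell were Gla, Man2b1, Fuca1, Lamp2, Ids, Lgmn, Galc, Asah1, Scarb2, Grn, Lamp1 and Cd63. By role, 2 of 7 membrane proteins rose and 4 fell, 3 of 7 glycosaminoglycan enzymes rose and 1 fell, and 4 of 9 sphingolipid genes rose and 3 fell. Of the glycoprotein and glycogen enzymes 2 of 5 rose and 2 fell, and of the protease group 1 of 4 rose and 2 fell. Beside these changes, 7 of 8 neutrophil markers, 2 of 4 dendritic cell markers and 3 of 3 T and B cell markers tested fell. Of the macrophage markers 4 of 6 fell and 1 rose (median -0.35). In the other direction, 7 of 7 osteoclast markers and 3 of 4 stromal markers tested rose. RHC80267 replicate 1 held the highest stromal marker sum, 59.1 CPM against 15.6 and 12.6, and was the lowest of its group for 18 of the 32 members, against 34.8% of all tested genes. The part of these markers in the members' changes was not tested.

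**Figure D2:**
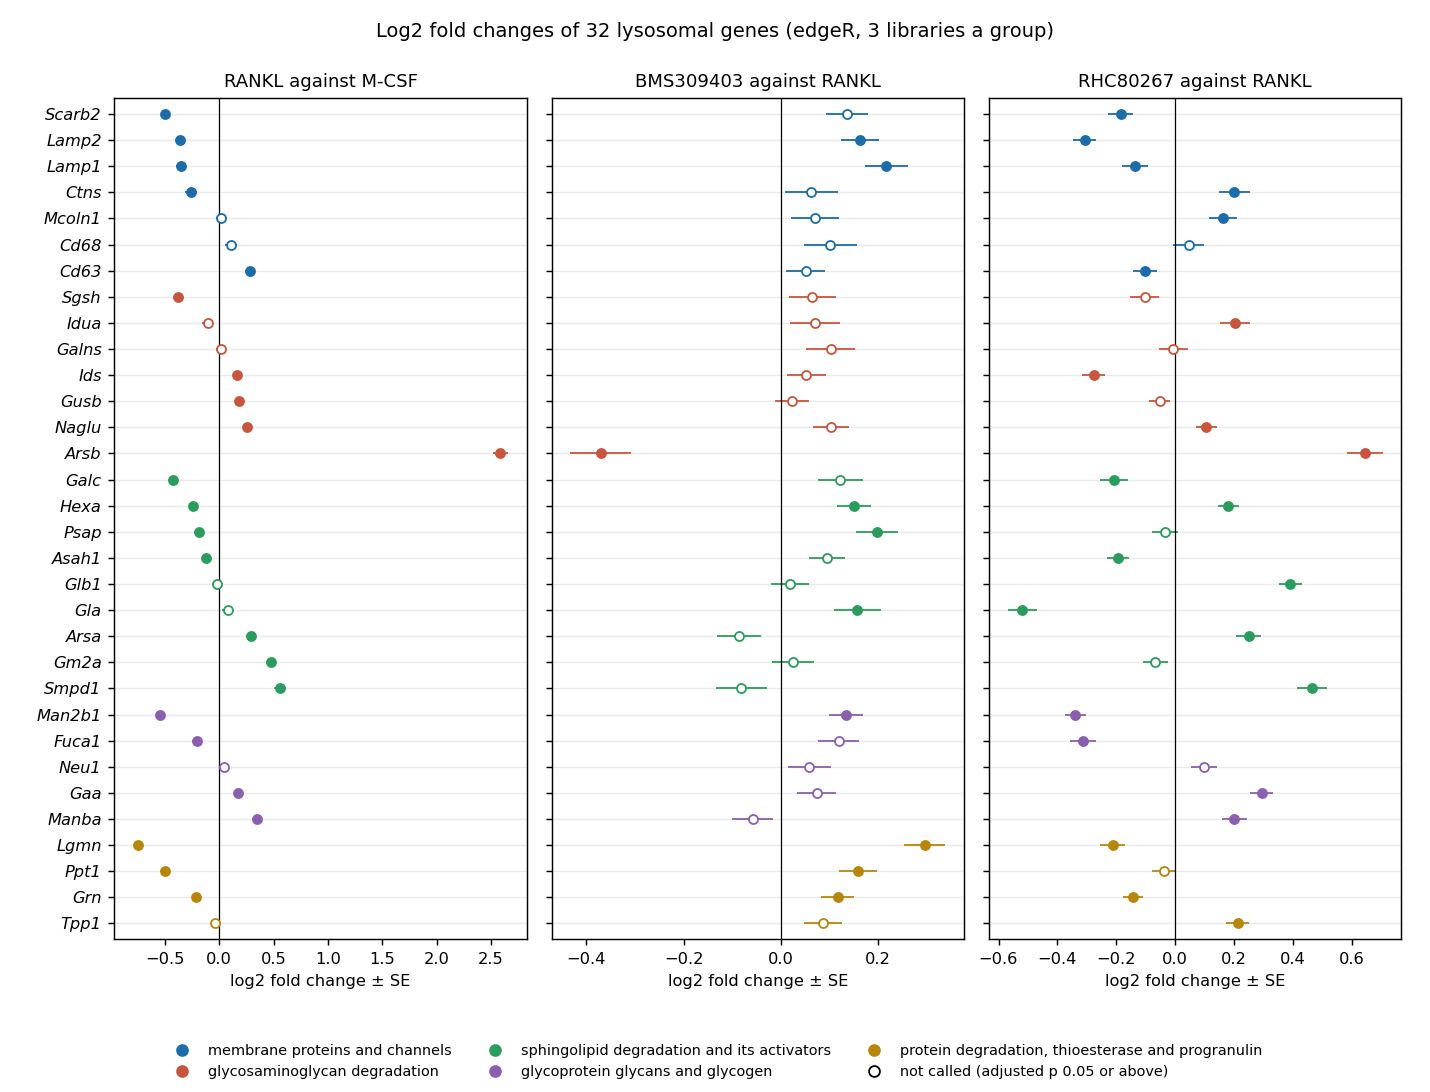
Log2 fold changes ± SE (x axes, each panel with its own scale) of the 32 members, 1 per line, coloured by role, for RANKL against M-CSF and for each inhibitor against RANKL alone. Filled points are called by edgeR at adjusted p below 0.05. Arsb stands far to the right in the RANKL panel, and in the BMS309403 panel it is the 1 filled point left of 0.

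Among the membrane proteins, Lamp1 and Lamp2 form much of the glycan lining of the lysosome. Lamp1 measured 2881, 2872 and 2868 CPM in M-CSF replicates 1 to 3 and 2054, 2319 and 2368 CPM in the RANKL libraries. It measured 2528, 2713 and 2596 CPM with BMS309403 and 2019, 2036 and 2076 CPM with RHC80267. All 3 M-CSF libraries lay above all others, the BMS309403 libraries lay above RANKL alone, and RANKL replicate 1 lay within the RHC80267 range. Lamp1 fell by 0.36 ± 0.04 (SE) on the log2 scale with RANKL (adjusted p = 3.61e-07) and rose by 0.22 ± 0.04 with BMS309403 (adjusted p = 0.00384). With RHC80267 it fell by 0.14 ± 0.04 (adjusted p = 0.0129), a call lost without RANKL replicate 2 (-0.13, adjusted p = 0.0522) or replicate 3 (-0.10, adjusted p = 0.0845). Lamp2 measured 933, 938 and 902 CPM with M-CSF and 686, 744 and 734 CPM with RANKL. It measured 782, 843 and 798 CPM with BMS309403 and 576, 592 and 581 CPM with RHC80267. The 4 groups of Lamp2 did not overlap, with RHC80267 lowest and M-CSF highest. Its log2 fold changes were -0.36 ± 0.04 with RANKL, 0.16 ± 0.04 with BMS309403 (adjusted p = 0.0126, 0.102 without RANKL replicate 1) and -0.31 ± 0.04 with RHC80267.

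Scarb2, the receptor that carries beta-glucocerebrosidase to the lysosome, measured 337, 319 and 319.8 CPM with M-CSF and 216, 233 and 243 CPM with RANKL. The inhibitor groups stood at 254, 258 and 248 CPM with BMS309403 and 205, 208 and 195 CPM with RHC80267. No 2 groups overlapped. Scarb2 fell by 0.50 ± 0.04 with RANKL (adjusted p = 1.14e-09) and by 0.19 ± 0.04 with RHC80267 (adjusted p = 0.00119). Its log2 fold change with BMS309403 was 0.14 ± 0.04 (adjusted p = 0.0572), not called in the main fit but called in 4 of the alternatives. Mcoln1, the cation channel TRPML1, measured 46.2, 42.2 and 42.1 CPM with M-CSF and 43.3, 43.1 and 46.1 CPM with RANKL. It measured 46.4, 45.3 and 47.3 CPM with BMS309403 and 48.8, 50.0 and 49.4 CPM with RHC80267. The first 3 groups overlapped with one another in part, and all RHC80267 libraries lay above the rest. Mcoln1 rose by 0.16 ± 0.05 with RHC80267 (adjusted p = 0.00769, 0.0556 without RANKL replicate 2), and its log2 fold change with RANKL was 0.02 ± 0.05 (adjusted p = 0.746). Ctns, the cystine exporter, fell by 0.26 ± 0.05 with RANKL and rose by 0.20 ± 0.05 with RHC80267. Cd63, a tetraspanin of late endosomes, rose by 0.28 ± 0.04 with RANKL. Its fall of 0.10 ± 0.04 with RHC80267 (adjusted p = 0.0442) lost the call without RANKL replicate 3 (-0.08, adjusted p = 0.181) and without each RHC80267 library (-0.11 to -0.09, adjusted p between 0.0611 and 0.117). It was also lost with upper quartile factors (-0.07, adjusted p = 0.154) and with the replicate block (-0.10, adjusted p = 0.051). Cd68, a macrophage sialomucin, had log2 fold changes between 0.05 and 0.11 in the 3 comparisons and passed none.

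Among the enzymes of glycosaminoglycan degradation, Arsb moved most. It measured 46.1, 50.6 and 48.1 CPM in the M-CSF libraries and 329, 279.6 and 261 CPM with RANKL. With BMS309403 it measured 227, 209 and 237 CPM and with RHC80267 449, 473 and 436 CPM. The 4 groups did not overlap. Arsb rose by 2.59 ± 0.07 with RANKL (adjusted p = 5.69e-18), a 6.0-fold difference. It fell by 0.37 ± 0.06 with BMS309403 (adjusted p = 0.000932) and rose by 0.64 ± 0.06 with RHC80267 (adjusted p = 1.74e-08). Within the RANKL group its highest value was in replicate 1, the library with the highest osteoclast marker sum. Of the 5 sulfatases among the members (Arsa, Arsb, Galns, Ids and Sgsh), 3 rose and 1 fell with RANKL (31.4% and 29.8% of all genes). With BMS309403 the 1 sulfatase called was Arsb, which fell (3.74% of all genes), and with RHC80267 2 rose and 1 fell (26.9% and 23.0%).

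Gusb, beta-glucuronidase, measured 529, 560 and 522 CPM with M-CSF and 599, 609.9 and 619 CPM with RANKL. Under the inhibitors it measured 627, 622 and 609 CPM with BMS309403 and 585, 584 and 592 CPM with RHC80267. The M-CSF libraries lay below all others, and RHC80267 lay just below RANKL alone. Gusb rose by 0.18 ± 0.04 with RANKL (adjusted p = 0.000113) and did not pass with either inhibitor (0.02 ± 0.04 with BMS309403, -0.05 ± 0.04 with RHC80267). Naglu and Ids, which act on heparan sulfate, rose by 0.26 ± 0.04 and 0.17 ± 0.04 with RANKL, and Sgsh, which removes sulfate from the same polymer, fell by 0.38 ± 0.05. Ids fell by 0.28 ± 0.04 with RHC80267 (adjusted p = 6.88e-06). Idua, alpha-iduronidase, rose by 0.20 ± 0.05 with RHC80267 (adjusted p = 0.00202) and stood at -0.11 ± 0.05 with RANKL. Naglu rose by 0.11 ± 0.04 with RHC80267 (adjusted p = 0.0213). That call was lost without RANKL replicate 1 (0.09, adjusted p = 0.0779), RANKL replicate 2 (0.09, adjusted p = 0.119) or RHC80267 replicate 2 (0.08, adjusted p = 0.112). With all libraries kept, it was lost without a filter (0.09, adjusted p = 0.075) and with only the compared groups (0.08, adjusted p = 0.0902). Galns, which acts on keratan sulfate, passed in none of the 3 comparisons, with log2 fold changes of 0.02, 0.10 and -0.01. With BMS309403 none of the 7 enzymes rose by edgeR, DESeq2 or limma-voom, and 3.49% of all genes rose by edgeR. Of the 7, 6 lay above 0, 1 of them at an unadjusted p below 0.05.

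In sphingolipid degradation, Smpd1 cleaves sphingomyelin. It measured 45.2, 41.9 and 44.7 CPM with M-CSF and 68.0, 61.0 and 64.9 CPM with RANKL. With BMS309403 it measured 64.4, 62.8 and 56.0 CPM and with RHC80267 88.0, 90.3 and 89.3 CPM. RANKL and BMS309403 libraries overlapped, M-CSF lay below and RHC80267 above. Smpd1 rose by 0.56 ± 0.06 with RANKL (adjusted p = 1.14e-08) and by 0.47 ± 0.05 with RHC80267 (adjusted p = 1.36e-07), and its log2 fold change with BMS309403 was -0.08 ± 0.05 (adjusted p = 0.44). Gla, which removes the terminal galactose of globotriaosylceramide, measured 136, 149 and 147 CPM with M-CSF and 141, 149 and 164 CPM with RANKL. It measured 175, 168 and 164 CPM with BMS309403 and 108, 106 and 104 CPM with RHC80267. M-CSF and RANKL libraries overlapped, as did RANKL and BMS309403, and all RHC80267 libraries lay below the rest. Gla fell by 0.52 ± 0.05 with RHC80267 (adjusted p = 1.91e-08). Its rise of 0.16 ± 0.05 with BMS309403 had an adjusted p of 0.0489 and was lost in 7 of the alternatives, including without RANKL replicate 2 (0.15, adjusted p = 0.136) and without BMS309403 replicate 1 (0.13, adjusted p = 0.175).

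Psap measured 15280, 15560 and 15160 CPM with M-CSF and 12440, 13590 and 14300 CPM with RANKL. It measured 14990, 15740 and 15520 CPM with BMS309403 and 12600, 13480 and 13230 CPM with RHC80267. RANKL replicate 1 was the lowest of the 12 libraries, and the RHC80267 range lay within that of RANKL alone. Psap fell by 0.19 ± 0.04 with RANKL (adjusted p = 0.000732), rose by 0.20 ± 0.04 with BMS309403 (adjusted p = 0.00793, 0.0538 without RANKL replicate 1) and stood at -0.04 ± 0.04 with RHC80267 (adjusted p = 0.514). Gm2a, the activator protein for GM2 ganglioside, measured 357, 339 and 328 CPM with M-CSF and 463, 467 and 489.8 CPM with RANKL. With BMS309403 it measured 481, 491 and 474 CPM and with RHC80267 434, 483 and 438 CPM. The 3 RANKL-treated groups overlapped and all lay above M-CSF. Gm2a rose by 0.47 ± 0.04 with RANKL (adjusted p = 3.69e-09). Gm2a did not pass with BMS309403 or RHC80267 (0.03 ± 0.04 and -0.07 ± 0.04).

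Glb1 measured 149, 147 and 157 CPM with M-CSF, 146, 149 and 151 CPM with RANKL and 154, 148 and 149.9 CPM with BMS309403. It measured 189.8, 204 and 189.9 CPM with RHC80267. The first 3 groups overlapped, and RHC80267 lay above them. Glb1 rose by 0.39 ± 0.04 with RHC80267 (adjusted p = 3.15e-08). Arsa, which removes sulfate from sulfatide, measured 45.5, 44.6 and 44.0 CPM with M-CSF and 53.8, 53.0 and 57.5 CPM with RANKL. It measured 51.2, 52.0 and 51.5 CPM with BMS309403 and 64.4, 67.1 and 63.7 CPM with RHC80267. M-CSF was lowest and RHC80267 highest, with no overlap between any 2 groups. Arsa rose by 0.29 ± 0.05 with RANKL and by 0.25 ± 0.04 with RHC80267. Galc (galactosylceramidase) and Asah1 (acid ceramidase) fell with RANKL, by 0.42 ± 0.05 and 0.12 ± 0.04, and with RHC80267, by 0.21 ± 0.05 and 0.19 ± 0.04. Hexa, the alpha subunit of hexosaminidase A, fell by 0.25 ± 0.04 with RANKL and rose by 0.18 ± 0.04 with RHC80267.

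Of the enzymes that trim glycoprotein glycans, Man2b1 is the major lysosomal alpha-mannosidase. It measured 1383, 1381 and 1431 CPM with M-CSF and 928, 980.3 and 972 CPM with RANKL. With BMS309403 it measured 1039, 1053 and 1071 CPM and with RHC80267 737, 759 and 780.4 CPM. The 4 groups did not overlap, with M-CSF highest and RHC80267 lowest. Man2b1 fell by 0.54 ± 0.04 with RANKL (adjusted p = 1.31e-11) and by 0.34 ± 0.04 with RHC80267 (adjusted p = 8.06e-08). Manba, the beta-mannosidase, measured 76.1, 76.5 and 82.2 CPM with M-CSF and 102, 101 and 94.6 CPM with RANKL. It measured 97.0, 92.4 and 96.9 CPM with BMS309403 and 115, 117 and 112 CPM with RHC80267. M-CSF was lowest and RHC80267 highest, and the RANKL and BMS309403 libraries overlapped. Manba rose by 0.34 ± 0.04 with RANKL (adjusted p = 5.47e-07) and by 0.20 ± 0.04 with RHC80267 (adjusted p = 0.000451), so the genes for the alpha- and beta-mannosidase moved in opposite directions in both comparisons.

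Fuca1, alpha-fucosidase, measured 210.3, 219.6 and 234 CPM with M-CSF and 185, 194 and 198 CPM with RANKL. It measured 207, 213 and 206 CPM with BMS309403 and 152, 151 and 161 CPM with RHC80267. RHC80267 lay below every other group, and M-CSF and BMS309403 overlapped. Fuca1 fell by 0.21 ± 0.04 with RANKL (adjusted p = 0.000228) and by 0.31 ± 0.04 with RHC80267 (adjusted p = 3.08e-06). Gaa, the acid glucosidase that breaks down glycogen, measured 133, 131 and 127 CPM with M-CSF and 139, 149 and 152 CPM with RANKL. It measured 156, 154 and 154 CPM with BMS309403 and 173, 181 and 185 CPM with RHC80267. The 4 groups of Gaa were ordered M-CSF, RANKL, BMS309403 and RHC80267 from low to high, without overlap. Gaa rose by 0.17 ± 0.04 with RANKL (adjusted p = 0.000903) and by 0.29 ± 0.04 with RHC80267 (adjusted p = 2.58e-06). Neu1, a sialidase, passed in none of the 3 comparisons (0.04, 0.06 and 0.10).

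In the protease group, Lgmn measured 1738, 1776 and 1887 CPM with M-CSF and 994, 1085 and 1134 CPM with RANKL. With BMS309403 it measured 1278, 1343 and 1322 CPM and with RHC80267 916, 924 and 932 CPM. The 4 groups did not overlap, and the 3 RHC80267 libraries lay close together at the bottom. Lgmn fell by 0.75 ± 0.04 with RANKL (adjusted p = 1.63e-12) and by 0.21 ± 0.04 with RHC80267 (adjusted p = 0.000332), and rose by 0.30 ± 0.04 with BMS309403 (adjusted p = 0.000379). Ppt1, the thioesterase that removes palmitate from proteins, measured 171, 176 and 169 CPM with M-CSF and 120.2, 121 and 123 CPM with RANKL. It measured 137, 141 and 128 CPM with BMS309403 and 117, 121 and 117 CPM with RHC80267. M-CSF was highest, BMS309403 lay above RANKL alone, and RANKL and RHC80267 overlapped. Ppt1 fell by 0.50 ± 0.04 with RANKL (adjusted p = 2.57e-10). Grn, the precursor of granulins, fell by 0.22 ± 0.03 with RANKL and by 0.14 ± 0.03 with RHC80267. Its rise of 0.12 ± 0.03 with BMS309403 (adjusted p = 0.0388) lost the call in 5 of the 6 fits with 1 library left out, with adjusted p between 0.0578 and 0.217. The call was also lost with only the compared groups (0.12, adjusted p = 0.0684). Tpp1, a tripeptidyl peptidase, rose by 0.21 ± 0.04 with RHC80267 (adjusted p = 0.000111) and stood at -0.04 ± 0.04 with RANKL.

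**Figure D3:**
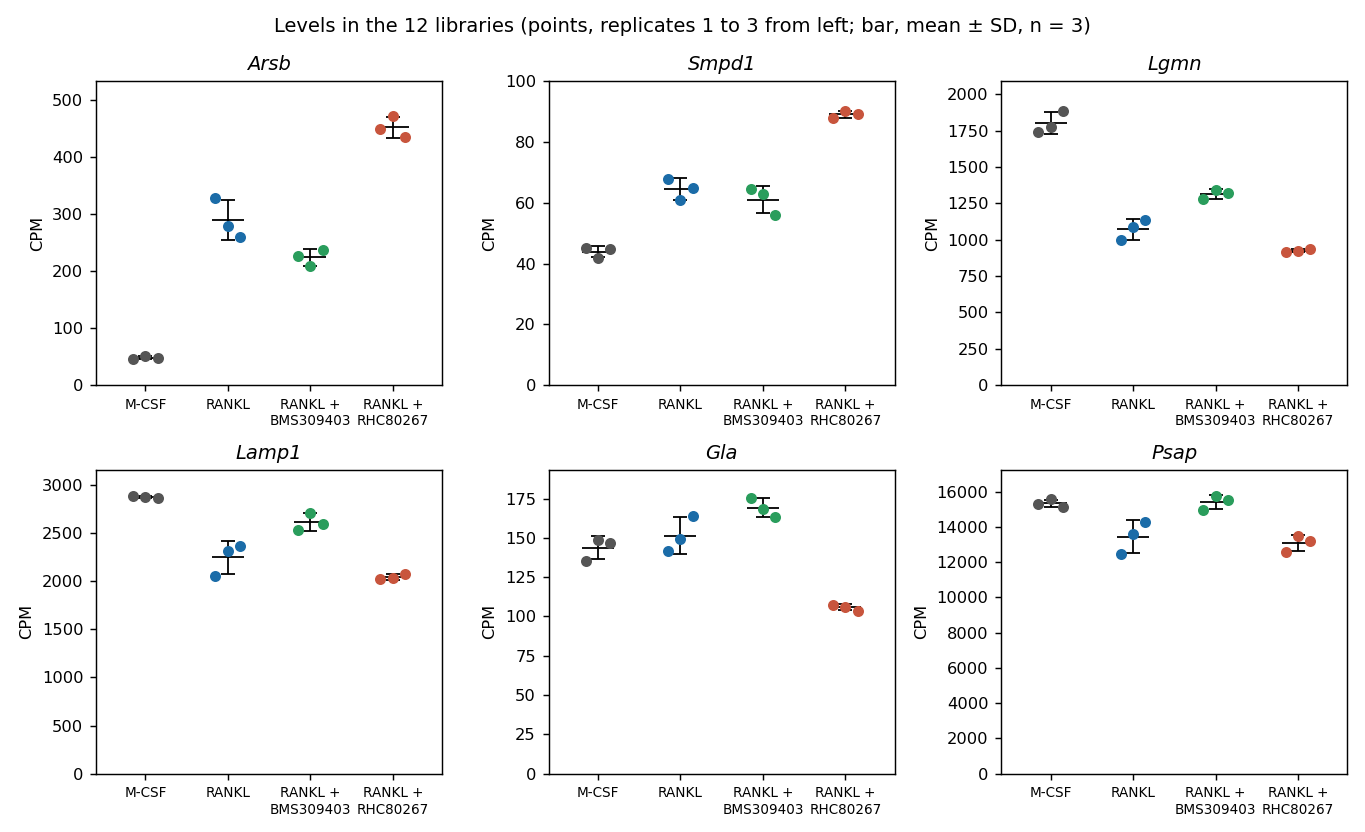
CPM (y axes, from 0) of 6 members in the 12 libraries, grouped along the x axis, with points for replicates 1 to 3 and bars for the mean ± SD (n = 3). Arsb and Smpd1 are highest in the RHC80267 libraries, Lgmn and Lamp1 are highest with M-CSF, Gla is lowest with RHC80267, and RANKL replicate 1 is the lowest point for Psap.

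Compared directly at the same dose and time, the 2 inhibitors left different member levels. By edgeR 9 members were higher with RHC80267 than with BMS309403 (30.1% of all genes were) and 15 were lower (25.5%), with a median log2 difference of -0.10 over the members and 0.03 over all genes. The widest differences were 1.01 ± 0.06 for Arsb, 0.55 ± 0.05 for Smpd1, 0.37 ± 0.04 for Glb1 and 0.34 ± 0.04 for Arsa. On the other side stood Gla at -0.68 ± 0.05, Lgmn at -0.51 ± 0.04, Man2b1 at -0.47 ± 0.04 and Lamp2 at -0.47 ± 0.04. The call of Tpp1 (0.12) was lost without BMS309403 replicate 1 or 3. Those of Ctns (0.14) and Idua (0.13) were lost with all libraries kept, under both other filters, with only the compared groups and with DESeq2 (adjusted p = 0.0896 and 0.0843), and with most libraries left out singly. Ctns stood at 0.09 (adjusted p = 0.233) without BMS309403 replicate 3, and Idua at 0.08 (adjusted p = 0.254) without BMS309403 replicate 1. For 8 members no difference between the inhibitors was called: Galns, Gm2a, Gusb, Cd68, Naglu, Hexa, Neu1 and Mcoln1, at -0.11 to 0.09. Of these, Gm2a was called lower with RHC80267 in 7 of the alternatives, Gusb in 6, Galns in 5 and Cd68 in 1. Mcoln1 was called higher in 1. Between the inhibitors, 7 of 7 osteoclast, 3 of 4 stromal and 1 of 6 macrophage markers were higher with RHC80267. Lower with RHC80267 were 5 of 6 macrophage, 7 of 8 neutrophil, 2 of 4 dendritic cell and 3 of 3 T and B cell markers. The part of these markers in the members' differences was not tested.

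Summed over all members, the level was lower with RANKL than with M-CSF and higher again with BMS309403. The 3 M-CSF libraries summed to 31865, 32222 and 32107 CPM and the RANKL libraries to 26520, 28428 and 29334 CPM. With BMS309403 the sums were 30975, 31973 and 31295 CPM, and with RHC80267 26436, 27676 and 27168 CPM. RANKL lay below M-CSF and below BMS309403 without overlap, whereas RANKL and RHC80267 overlapped. The means differed by -12.4% for RANKL against M-CSF, 11.8% for BMS309403 against RANKL and -3.56% for RHC80267 against RANKL. Psap carried much of the sum, and without it the 3 differences were -12.4%, 9.16% and -4.55%. Summed TPM, which carry no TMM factors, had means of 23570 ± 158 (SD, n = 3) with M-CSF and 20690 ± 985 with RANKL. They stood at 22400 ± 475 with BMS309403 and 20780 ± 604 with RHC80267. The sign of the difference between RHC80267 and RANKL thus depended on the scale. The glycosaminoglycan enzymes alone went the other way with RANKL, from 1089 ± 15.3 to 1405 ± 14.3 CPM (SD, n = 3), and without Arsb the difference for the other 6 was 7.1%. These sums describe the libraries and were not tested.

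**Figure D4:**
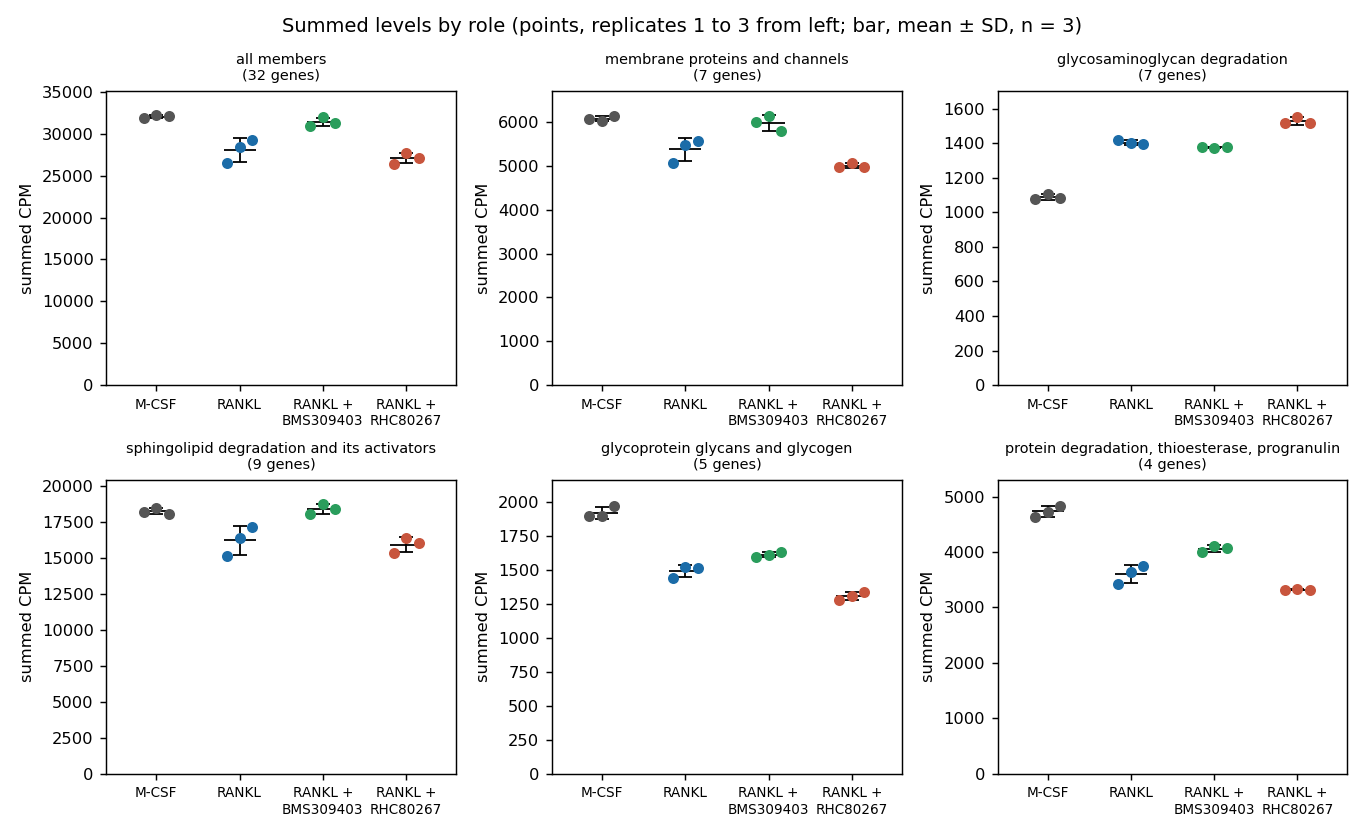
Summed CPM (y axes, from 0) of all 32 members and of each role in the 12 libraries, with points for replicates 1 to 3 and bars for the mean ± SD (n = 3). RANKL replicate 1 has the lowest sum of its group over all members, 26520 CPM, and the glycosaminoglycan enzymes are the 1 role whose M-CSF libraries are lowest.

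By mean level, no member was highest in the RANKL group, whereas 13 were highest with M-CSF, 11 with RHC80267 and 8 with BMS309403. The lowest mean was in the RHC80267 group for 14 members, in the M-CSF group for 13, in the RANKL group for 5 and in the BMS309403 group for 0. The same counts were not made over all genes, so they do not set the members apart from other genes. They rank the means whether or not a difference was called, and all members were read from the same libraries. The ratio of the highest to the lowest group mean ran from 1.09 for Galns to 9.37 for Arsb, with Smpd1 next at 2.03 and Lgmn at 1.95.

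Members with and without an E-box window were set side by side as a description. With RHC80267, 5 of the 9 members with CACGTG rose and 3 fell, against 7 and 8 of the 21 without it (26.9% and 23.0% of all genes). With RANKL the counts were 3 and 3 of 9 against 7 and 10 of 21 (31.4% and 29.8% of all genes). With BMS309403 they were 3 and 0 of 9 against 6 and 1 of 21 (3.49% and 3.74% of all genes). Lamp1, with 4 copies, fell with RANKL and with RHC80267 and rose with BMS309403. Gla, with 2 copies of the longer motif, fell with RHC80267 and rose with BMS309403, a rise lost in 7 of the alternatives. Arsb, with none in its window, had the widest changes. A link between motif content and response was not tested. Mcoln1, with 1 copy of each length, rose with RHC80267. With RHC80267 the calls of Lamp1, Naglu and Mcoln1, and of Cd63 among the members without the motif, were each lost in some alternatives.

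Other genes of the same pathway were read from 3 lists. Of 25 further lysosomal enzymes and membrane proteins tested, 7 rose and 11 fell with RANKL (31.4% and 29.8% of all genes), with a median of -0.03. Clcn7, the chloride-proton exchanger of lysosomes and of the osteoclast's bone-facing membrane, rose by 0.80 ± 0.04, followed by Aga (0.42 ± 0.06), which cleaves asparagine-linked sugars, and Ostm1 (0.29 ± 0.04), the partner of Clcn7. Pla2g15, a lysosomal phospholipase, fell by 0.68 ± 0.04, Cd164 by 0.58 ± 0.04 and Laptm5 by 0.50 ± 0.03. With BMS309403, 4 rose (3.49% of all genes): Hgsnat (0.24 ± 0.04), Laptm4a (0.19 ± 0.04), Cd164 (0.17 ± 0.04) and Lipa, the acid lipase (0.14 ± 0.04). Lipa, the fourth of them, was named after its value was seen. None of the 25 fell by edgeR (3.74% of all genes did), DESeq2 or limma-voom, and 1 lay below 0 at an unadjusted p below 0.05. Both Cd164 and Lipa lost the call without RANKL replicate 1 (0.15, adjusted p = 0.101, and 0.10, adjusted p = 0.182) and without BMS309403 replicate 2 (0.14, adjusted p = 0.102, and 0.13, adjusted p = 0.113), and Lipa also without BMS309403 replicate 3 (0.14, adjusted p = 0.0616). With RHC80267, 5 rose and 11 fell (26.9% and 23.0% of all genes). Pla2g15 rose by 0.50 ± 0.04 and Aga by 0.21 ± 0.05, and Hgsnat, the acetyltransferase of heparan sulfate breakdown, fell by 0.60 ± 0.04, Cd164 by 0.39 ± 0.04 and Slc17a5 by 0.29 ± 0.05.

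Of the 7 genes that tag enzymes and deliver them to lysosomes, 3 rose and 2 fell with RANKL (31.4% and 29.8% of all genes). Gnptab, which codes for the transferase that makes the mannose phosphate tag, went from 102 ± 4.14 to 282 ± 29.6 CPM (SD, n = 3) and rose by 1.46 ± 0.06. The tag receptor genes Igf2r and M6pr rose by 1.72 ± 0.05 and 0.58 ± 0.04. Sort1, a tag-independent sorting receptor, fell by 0.88 ± 0.05, and Sumf1, which activates all sulfatases, fell by 0.18 ± 0.05. With BMS309403 2 of the 7 fell (3.74% of all genes), Gnptab by 0.26 ± 0.06 (adjusted p = 0.0101) and Igf2r by 0.14 ± 0.04 (adjusted p = 0.0485). Gnptab lost the call without RANKL replicate 1 (-0.17, adjusted p = 0.103) and without BMS309403 replicate 2 (-0.22, adjusted p = 0.0829). Igf2r lost it in 5 of the 6 fits with 1 library left out, with adjusted p between 0.0658 and 0.252. With all libraries kept, Igf2r also lost it with RLE factors (adjusted p = 0.0542), with at least 1 CPM in at least 3 libraries (0.053) and with only the compared groups (0.0571). No gene of this list rose with BMS309403, by edgeR (3.49% of all genes did), DESeq2, limma-voom or at an unadjusted p below 0.05. With RHC80267 3 of the 7 rose (26.9% of all genes). Gnptab rose by 0.63 ± 0.06 to 436 ± 26.8 CPM and Sort1 by 0.28 ± 0.05, and Sumf1 stood at -0.07 ± 0.05. Nagpa, which uncovers the tag, rose by 0.11 ± 0.04 (adjusted p = 0.0435), a call lost in 8 of the alternatives.

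Of the 6 genes for MITF and TFE factors and their control, 2 rose and 3 fell with RANKL (31.4% and 29.8% of all genes). Mitf fell by 0.29 ± 0.05, Tfe3 by 0.28 ± 0.04 and Flcn by 0.53 ± 0.05, Tfec rose by 0.34 ± 0.05 and Mtor by 0.20 ± 0.06, and Tfeb stood at 0.10 ± 0.05 (adjusted p = 0.12). With RHC80267, 3 rose and 2 fell (26.9% and 23.0% of all genes). Mitf rose by 0.27 ± 0.05 and Tfec by 0.24 ± 0.05, and Tfe3 fell by 0.24 ± 0.04. Tfeb (-0.14 ± 0.05, adjusted p = 0.03) and Mtor (0.15 ± 0.05, adjusted p = 0.0217) passed, but each lost the call under DESeq2 (adjusted p = 0.0753 and 0.056) and in 4 of the 6 fits with 1 library left out, at adjusted p up to 0.16 and 0.0941. With BMS309403 none of the 6 passed by edgeR (7.23% of all genes did), DESeq2 or limma-voom, and 2 had an unadjusted p below 0.05.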

How the data were processed

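RNA was sequenced from 12 mouse libraries in 4 groups of 3. The deposited table holds expected counts and TPM per gene that the authors made with Bowtie2 and RSEM 1.3.1, and the submitters' processing notes also name DESeq2 1.4.5. The order of steps, the filters and the genome build were not given in the sources used here. The deposited TPM values were used as given, to compare levels between genes and, summed over the members, between groups. The authors' expected counts were whole for 28 members in all libraries and not for Sgsh, Glb1, Galc and Asah1, and were rounded. 24 further per-sample columns were not used.

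Groups were taken from the labels. Genes were filtered with filterByExpr, scaled with TMM factors and fitted over all 12 libraries with edgeR 4.0.16 (R 4.3.3) by the quasi-likelihood test (common biological coefficient of variation 0.0371, 8 residual degrees of freedom). p-values were adjusted by Benjamini-Hochberg over 12168 genes and called below 0.05. The SE is the log2 fold change divided by the square root of F. CPM carry the TMM factors. The test was also run on counts simulated from its own model, with the RANKL means and the fitted spread. Such counts do not show how the calls depend on single libraries. Library totals of 17760844 to 18344989 expected counts gave every member at least 749 counts in each library. For the members with the fewest counts, counting error is part of the spread between replicates.

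Alternatives were RLE and upper quartile factors, 2 other filters, the replicate number as a block, only the compared groups, limma-voom (limma 3.58.1), DESeq2 1.42.0 and leaving out each library. Replicates were checked for duplicates, and every pair differed by more than sampling noise. Same-numbered libraries did not deviate together (correlations -0.062 to 0.094), so the numbers were not taken as pairs.

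Every member is named. Values per library are given for the 4 members at each end of each comparison and for Lamp1, Psap, Mcoln1 and Gusb, and the 3 called genes at each end of each pathway list are named together with Gnptab, Sumf1, Tfeb, Tfe3, Mitf and Tfec. One gene that this rule names is not reported here. The members and lists were chosen with earlier results of these data known. A planned look at the C-terminal ends of the membrane proteins was not run, since no protein table was used here.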

Additional observations from a re-analysis of the deposited data

How the results depend on the processing

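With 1 library left out, the number of members that rose with BMS309403 ranged from 2 (without RANKL replicate 1, and without BMS309403 replicate 2) to 11, and 1 fell in every such fit. Over all genes these 2 fits called 152 higher and 111 lower, and 171 higher and 145 lower, against 425 and 455 with all libraries. Fits that leave out a library estimate the spread over all groups together, so the group left with 2 libraries is assumed to vary like the others. The other counts stayed within 1.5 times the main ones. Over all alternatives, members were called the same way 1697 times, lost a call 58 times, gained one 37 times and reversed 0 times. Members not called changed sign 5 times with RANKL (Galns, Glb1 and Mcoln1), 3 times with RHC80267 (Galns and Psap) and 11 times between the inhibitors (Hexa, Naglu and Neu1). The median member difference between the inhibitors ranged from -0.15 without BMS309403 replicate 3 to -0.07 with upper quartile factors, and stood at -0.12 without a filter, with at least 1 CPM in at least 3 libraries and with only the compared groups. The summed M-CSF level was 31850 CPM with upper quartile factors. The cause of these shifts was not tested. Counting error adds to the replicate spread of the members with the fewest counts, which had from 749 counts in a library.

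With the replicate block, 10 members rose and 14 fell with RANKL, 8 rose and 1 fell with BMS309403, 12 rose and 11 fell with RHC80267, and 9 were higher and 15 lower with RHC80267 than with BMS309403. The libraries share only a number, so the block does not stand for a pairing.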
